A study of Mus musculus with 11 samples.

Results

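The genes described here are those of the nephron beyond the proximal tubule, 36 of the 13734 genes measured. They comprise genes of the thick ascending limb of the loop of Henle (7), the distal convoluted tubule (7), the connecting tubule (2), the principal cells (8) and intercalated cells (6) of the collecting duct, and 6 genes of tubular epithelium that belong to more than 1 segment. They were listed by gene name and known segment, with earlier results of these data known, and all 36 were present, with at least 103 counts in every library. The RNA came from isolated mouse glomeruli, the filtering units of the kidney, which contain none of these segments.

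In the nephron, filtrate from the glomerulus passes the proximal tubule, the loop of Henle, the distal convoluted tubule, the connecting tubule and the collecting duct. The thick ascending limb reabsorbs salt without water, the distal convoluted tubule takes up further sodium chloride under control of WNK kinases, and the connecting tubule reabsorbs calcium. Principal cells move water through aquaporins and sodium through the epithelial sodium channel, and intercalated cells secrete acid or base with a vacuolar proton pump. Early distal tubule touches the vascular pole of its own glomerulus at the macula densa, and preparations of glomeruli can carry pieces of tubule.

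The study compared glomeruli of db/db mice, homozygous for a leptin receptor mutation that causes obesity and diabetes, given puerarin (n = 3) or vehicle (n = 4), with db/m littermates of the same age given vehicle (n = 4). Puerarin, an isoflavone glucoside, was dosed at 20 mg per kg body weight each day by gavage in 5% DMSO, and vehicle was 5% DMSO alone. Dosing ran for 6 weeks from 10 weeks of age. The labels give all mice as male and the background as BKS in one field and C57BL/6J in another.

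Library totals ran from 35369703 to 44244460 counts, and levels below are CPM, that is counts scaled to a common library size with TMM factors. Counts were summed over the transcripts of a gene, so reads shared by transcripts may be counted more than once. By title the libraries are of 2 forms: 5 carry an S-number, and 6 carry a tag for their group, called group-tag titles below. Each group held both forms, and the labels do not say what they stand for. Puerarin 2 and 3, both with group-tag titles, had Xist, which is transcribed from the inactive X, at 528 and 819 CPM, against at most 6.47 CPM elsewhere, and 3.06 and 0.909 CPM of Y-linked Ddx3y against at least 50.3 CPM elsewhere, which goes against the male label. Podocyte markers (8 of 8 measured) summed to 11760 to 17130 CPM and glomerular endothelial markers (7 of 7) to 2792 to 6087 CPM, so the labelled tissue was present in every library. In bulk RNA, fewer cells of a type and less RNA per cell cannot be told apart.

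The 36 genes moved together from library to library, over a wide range, and stood higher in the libraries with group-tag titles. Their summed level was 2284 CPM in db/db puerarin S144 and 3383 CPM in db/m vehicle S185, and it reached 17310 CPM in db/db vehicle 3. By their most counted transcripts alone, they took 0.189% of the counts in puerarin S144, 0.279% in db/m S185 and 1.54% in db/db vehicle 3, with 0.563% to 1.1% in the other 8 libraries. Puerarin S144 or db/m S185 was the lowest library for 35 of the 36 genes, and these were the lowest pair for 34. Db/db vehicle 3 was the highest library for 28 genes. These 3 libraries, 1 from each group, stand apart from the rest. For the 36 genes as a set, medians or counts are also given without 1 or 2 of them, though not for each of the 3 in every comparison. Differences of single genes are mostly given over all libraries or within a title form.

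**Figure D1:**
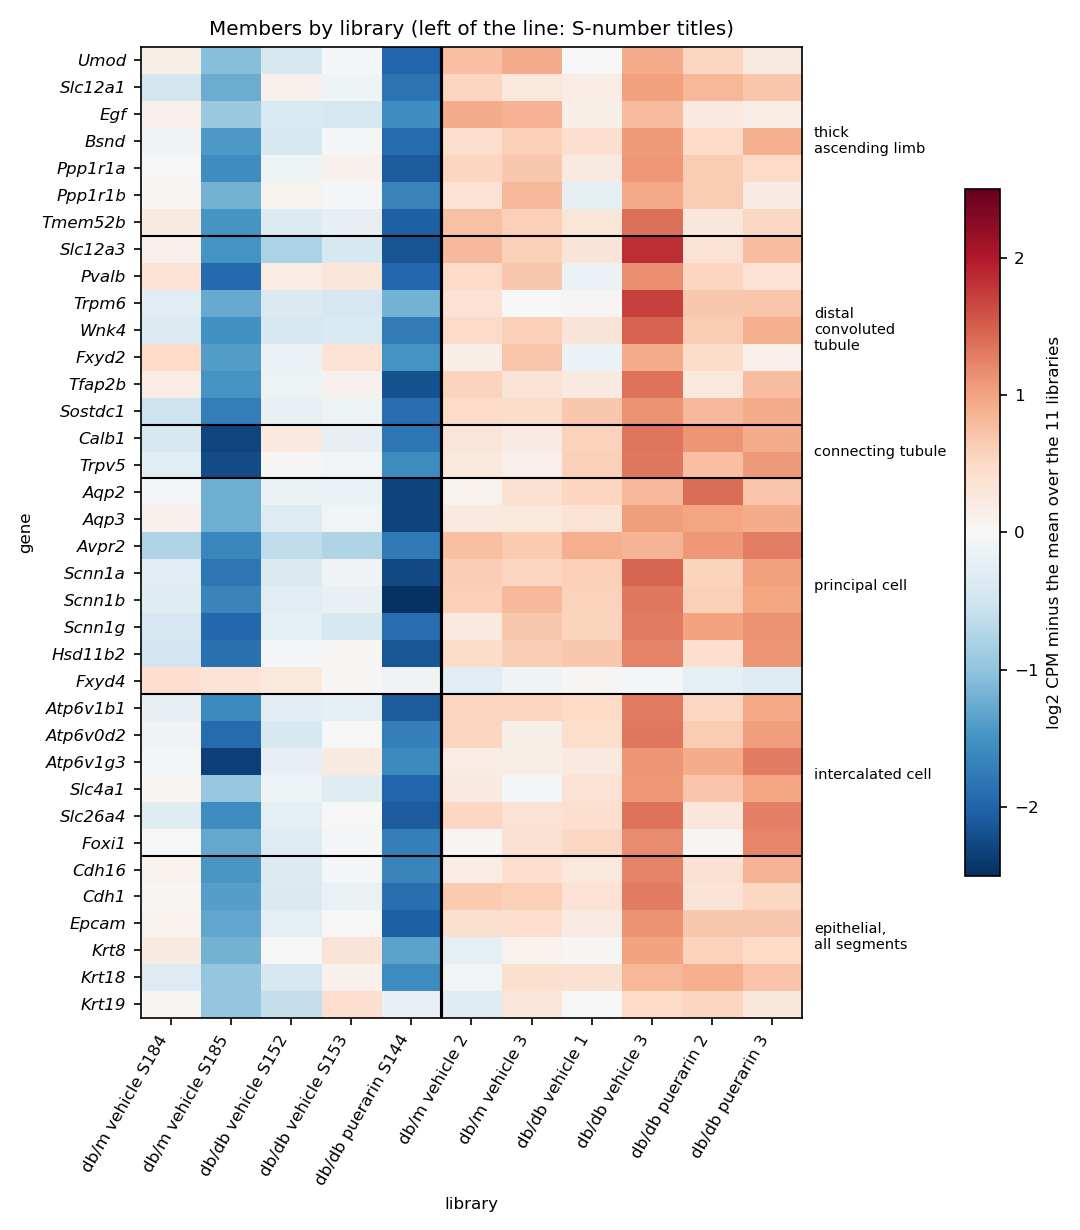
Heat map of the 36 genes (rows, by segment) in the 11 libraries (columns), as log2 CPM minus the gene's mean over the libraries; libraries left of the vertical line have S-number titles. The columns of db/m vehicle S185 and db/db puerarin S144 are lowest for nearly every gene, db/db vehicle 3 is highest for 28 genes, and Fxyd4 does not follow the other rows.

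The highest library exceeded the lowest by a median of 9.0-fold over the 36 genes, from 1.66-fold for Fxyd4 to 16.0-fold for Slc12a3, and by at least 5-fold for 34 genes. The median SD of log2 CPM over the 11 libraries was 0.99 for these genes and 0.221 for the 13731 genes above 0 in every library. A common level was set for each library as the median, over the other members, of log2 CPM minus each member's mean over the libraries. Once this level was taken off, the median SD was 0.285, and the SD was smaller for 34 of 36 genes. The exceptions were Fxyd4, a regulator of the sodium pump in the collecting duct, and Krt19, a keratin of simple epithelia. Bsnd, which encodes barttin, the accessory subunit of the basolateral chloride channels, kept closest to the common level (SD 0.101 after it was taken off, 0.94 before), followed by Epcam, an epithelial adhesion molecule (0.119 and 0.92).

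Promoters are shown for a gene of the loop, a gene each of the principal and intercalated cell, all 3 of which followed the common level, and for Fxyd4, which did not. Each run is the 250 bases before the transcript start, 5′ to 3′ on the gene's strand, from RefSeq (GRCm38.p6). Capitals mark matches to 3 motifs searched on both strands. The letters GTTAAT are a half-site of HNF1 factors. The letters TGTTTAC are a core bound by forkhead factors, the family of Foxi1. The letters GATAAG are bound by the zinc-finger family of Gata3.
Umod (chr7:119479263-119479512, minus strand): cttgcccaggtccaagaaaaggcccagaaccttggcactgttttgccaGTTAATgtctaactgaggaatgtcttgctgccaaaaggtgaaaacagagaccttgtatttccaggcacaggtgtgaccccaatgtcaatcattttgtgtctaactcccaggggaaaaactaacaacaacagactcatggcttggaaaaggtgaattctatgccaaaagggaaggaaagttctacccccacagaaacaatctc
Aqp2 (chr15:99578806-99579055, plus strand): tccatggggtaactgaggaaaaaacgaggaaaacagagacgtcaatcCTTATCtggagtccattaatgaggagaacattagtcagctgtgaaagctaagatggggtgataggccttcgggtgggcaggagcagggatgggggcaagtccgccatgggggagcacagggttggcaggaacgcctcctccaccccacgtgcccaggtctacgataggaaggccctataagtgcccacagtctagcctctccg
Atp6v1b1 (chr6:83742767-83743016, plus strand): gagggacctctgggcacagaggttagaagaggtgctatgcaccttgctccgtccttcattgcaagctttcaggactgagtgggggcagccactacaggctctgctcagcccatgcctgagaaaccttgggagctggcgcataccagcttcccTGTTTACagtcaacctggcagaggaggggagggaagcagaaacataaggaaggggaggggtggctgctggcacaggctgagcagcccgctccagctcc
Fxyd4 (chr6:117937336-117937585, minus strand): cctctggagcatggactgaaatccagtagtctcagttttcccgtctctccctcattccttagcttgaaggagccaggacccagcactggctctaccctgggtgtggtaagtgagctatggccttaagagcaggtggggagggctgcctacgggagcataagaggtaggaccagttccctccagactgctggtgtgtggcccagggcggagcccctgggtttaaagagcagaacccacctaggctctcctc
Umod held GTTAAT 202 bases before the start, Atp6v1b1 held TGTTTAC 98 bases before it, and Aqp2 held GATAAG on the reverse strand (read as CTTATC) 203 bases before it. None of the 3 motifs was in the Fxyd4 window. Of the 36 genes, 23 matched a RefSeq promoter entry. GTTAAT was found in 3 of the 23 (Umod, Tfap2b, Atp6v1g3) and in 6.43% of 32851 promoter windows of the same length. TGTTTAC was found in 4 (Egf, Slc12a1, Avpr2, Atp6v1b1) and in 3.17% of windows, and GATAAG in 2 (Aqp2, Krt8) and in 6.55%. No matches to different motifs overlapped. A match describes letters only.

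Per kilobase of transcript, which allows levels to be compared between genes, Umod had the highest mean over the 11 libraries (671.9 CPM per kb), followed by Fxyd2 (528.1), Egf (279.3), Slc12a3 (272.6), Calb1 (194.2) and Aqp2 (167.8). The lowest mean was that of Tfap2b, a transcription factor of the distal convoluted tubule, at 3.12 CPM per kb. The range of each gene over libraries was wide against these steps: Umod ran from 145.3 to 1116 CPM per kb and Fxyd2 from 162.9 to 887.1, so neighbours in this order overlapped.

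Libraries with group-tag titles had more RNA of these genes than those with S-number titles, in all 3 groups. In edgeR's quasi-likelihood test with group as a term, 21 of 36 genes were higher past an adjusted p of 0.05 and none was lower, where 5.65% of all genes were called higher and 1.32% lower. The direction was higher for 35 of 36 genes, with a median log2 difference of 1.31 against -0.02 over all genes, and the ranges of the title forms did not overlap for 25 (5.13% of all genes, higher). Within db/m the median difference was 1.294, within db/db vehicle 0.938 and within db/db puerarin 2.602, the last with puerarin S144 as its lone S-number library. In each group 35 of 36 genes were higher under group-tag titles. DESeq2 called 31, 30 of them higher (9.9% of all genes) and Fxyd4 lower (3.83% of all genes).

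The number of genes past the test moved strongly with single libraries while the direction did not. It was 2 without puerarin S144, 4 without db/db vehicle S152, db/m S185, db/db vehicle 3 or db/m 3, and 10 without db/db vehicle S153. It was 11, 13 and 12 without puerarin 2, puerarin 3 and db/m 2. Leaving out db/db vehicle 1 gave 28, and leaving out db/m S184 gave 32. Without S144 and S185 together, a setting chosen after seeing the data, 2 genes passed and the median was 0.78. In every one of 20 other settings 35 genes were higher. Avpr2 alone passed in all of them. What differed between the title forms was not tested, since no label describes it.

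**Figure D2:**
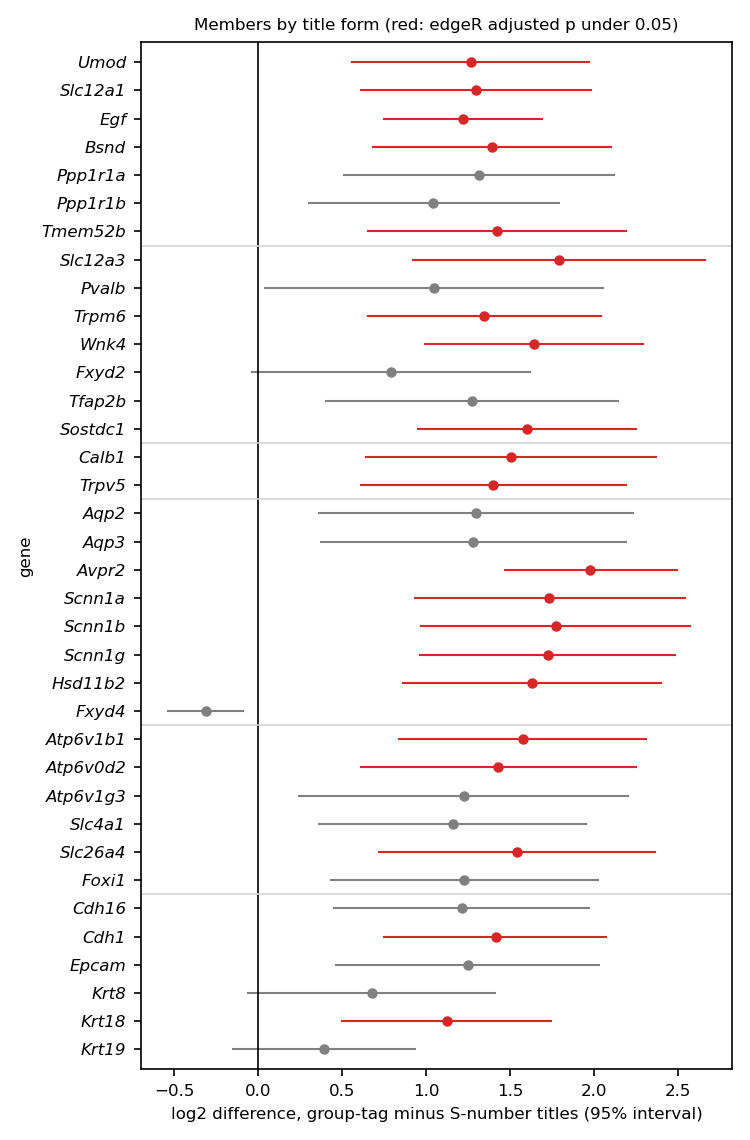
Log2 difference of each gene between libraries with group-tag (n = 6) and S-number titles (n = 5), with its 95% interval from the edgeR fit; red marks an adjusted p under 0.05. Of 36 genes, 35 lie right of 0, 21 of them in red, and Fxyd4 lies left of 0.

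The 3 group comparisons, each with the title form as a term, called none of the 36 genes in edgeR. Between db/db and db/m on vehicle, 33 of 36 genes were higher (53.5% of all genes), with a median log2 difference of 0.42 against 0.02 over all genes. The smallest adjusted p was 0.477, and 2 genes had an unadjusted p under 0.05 (5.5% of all genes, higher), both of the connecting tubule. No gene's groups were free of overlap (2.48% of all genes higher and 2.48% lower), the called share over all genes was 0.0437%, and DESeq2 called 0 of the 36 (2.11% of all genes). Without db/m S185 the median was 0.27 with 30 genes higher, without db/m S184 it was 0.82 with 36 higher, and without both db/db vehicle 3 and db/m S185 it was 0.13 with 27 higher. The median was 0.44 in a fit of the group-tag libraries alone. The test of whether this genotype difference itself varied with title form called 0 of 36 genes (0.0218% of all genes), with 0 at an unadjusted p under 0.05 (3.33% of all genes).

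Between puerarin and vehicle in db/db mice, 35 of 36 genes were lower (55.3% of all genes), with a median log2 difference of -0.60 against -0.02 over all genes. Of these, 2 had an unadjusted p under 0.05 (2.19% of all genes, lower), edgeR and DESeq2 each called 0 (0.0% of all genes in edgeR and 0.109% in DESeq2), and only Fxyd4 had groups that did not overlap (1.72% of all genes, lower). Puerarin S144 carried most of this difference: without it the median was -0.15 with 28 genes lower, in a fit of the group-tag libraries alone it was -0.13 with 26 lower, and with S144 as the only puerarin library it was -1.64 with 36 lower. Without S144 and S185 the median was -0.05. Among the puerarin libraries, title form and Xist status coincide and cannot be told apart. Among the group-tag libraries of db/db mice, puerarin treatment and high Xist coincide and cannot be told apart either.

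Between puerarin-treated db/db and db/m mice, 23 of 36 genes were lower (52.3% of all genes) and the median log2 difference was -0.12. EdgeR called 0 of the 36 (0.182% of all genes) with 1, Egf, lower at an unadjusted p under 0.05 (4.89% of all genes, lower), and DESeq2 called Egf lower (0.83% of all genes). No gene had groups free of overlap (3.73% of all genes higher, 3.92% lower). The median turned to 0.30 without puerarin S144, to 0.14 without db/m S184 and to 0.28 within the group-tag libraries. Without S144, and within the group-tag libraries, puerarin treatment and high Xist coincide and cannot be told apart. This comparison shares its libraries with the other 2, so its values add no separate evidence.

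**Figure D3:**
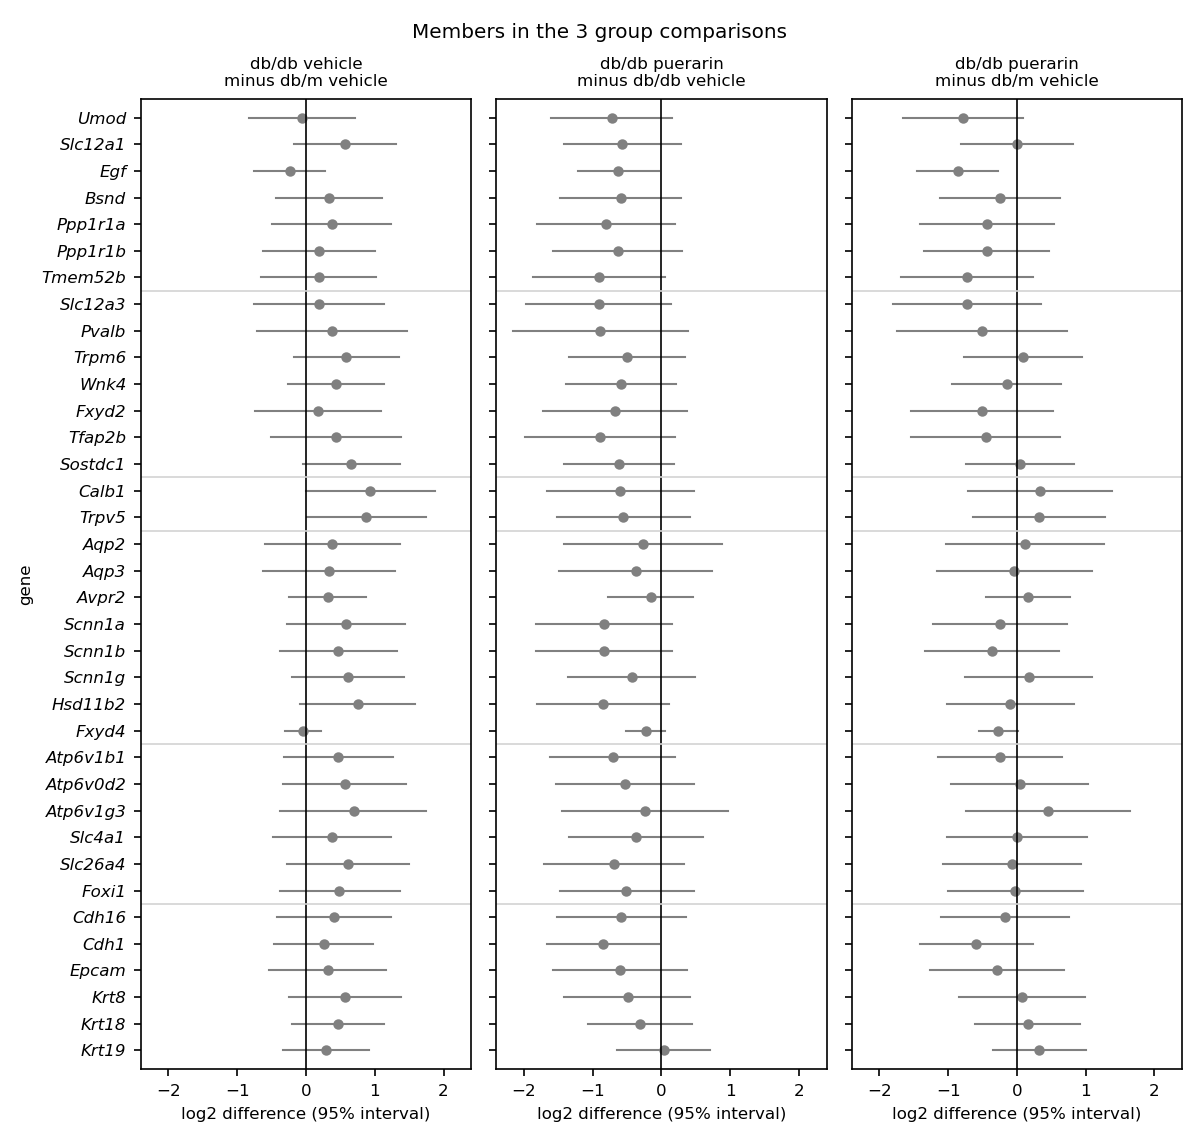
Log2 differences of the 36 genes in the 3 group comparisons, with 95% intervals from the edgeR fit (db/m vehicle n = 4, db/db vehicle n = 4, db/db puerarin n = 3). Points lie mostly right of 0 for db/db minus db/m and left of 0 for puerarin minus vehicle, and nearly all intervals cross 0.

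Values of single libraries are given from here on in 1 order: db/m vehicle S184, S185, 2 and 3, then db/db vehicle S152, S153, 1 and 3, then db/db puerarin S144, 2 and 3.

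Among the 7 genes of the thick ascending limb, 5 were higher past the test under group-tag titles (Umod, Slc12a1, Egf, Bsnd and Tmem52b), and between db/db and db/m the median log2 difference was 0.20, the smallest of the segments. Umod encodes uromodulin, the most abundant protein of normal urine, and lies at chr7:119462708-119479262 on the minus strand (mm10). Umod was at 2072, 892, 3142 and 3548 CPM in db/m, at 1423, 1846, 1851 and 3562 CPM in db/db vehicle, and at 472, 2712 and 2183 CPM in puerarin. The 3 groups overlapped throughout, with the lowest value in puerarin S144 and nearly equal highest values in db/db vehicle 3 and db/m 3. Its log2 difference was -0.06 between db/db and db/m (95% interval -0.83 to 0.71, edgeR adjusted p = 0.973) and -0.72 between puerarin and vehicle (interval -1.61 to 0.16, adjusted p = 0.967), but -0.08 within the group-tag libraries.

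Egf, the precursor of epidermal growth factor, made in the thick limb and early distal tubule, lies at chr3:129677577-129755322 (minus strand). Egf stood at 2049, 984, 3566 and 3393 CPM in db/m, at 1439, 1391, 2080 and 3222 CPM in db/db vehicle, and at 637, 2199 and 2100 CPM in puerarin. Each group-tag library was above each S-number library, and the groups overlapped. Puerarin libraries were lower than db/m ones by a log2 difference of -0.86 (SE 0.26, edgeR adjusted p = 0.272; -1.16 within S-number and -0.70 within group-tag libraries) and lower than db/db vehicle by -0.63 (SE 0.26, unadjusted p = 0.0387, adjusted p = 0.967). DESeq2 gave Egf an adjusted p of 0.0407 against db/m.

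Tmem52b, a membrane protein gene of distal tubule, was at 236, 72.1, 334 and 303 CPM in db/m, at 158, 175, 247 and 521 CPM in db/db vehicle, and at 49.0, 245 and 289 CPM in puerarin. The groups overlapped, and its difference between puerarin and vehicle was -0.90 (SE 0.43, edgeR adjusted p = 0.967). The remaining genes of the limb were Slc12a1, the sodium-potassium-chloride cotransporter that loop diuretics block, Bsnd, and the phosphatase inhibitors Ppp1r1a and Ppp1r1b. Between db/db and db/m they ranged from 0.20 (Ppp1r1b) to 0.57 (Slc12a1) on the log2 scale, and between puerarin and vehicle from -0.81 (Ppp1r1a) to -0.57 (Slc12a1), with none past the test.

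**Figure D4:**
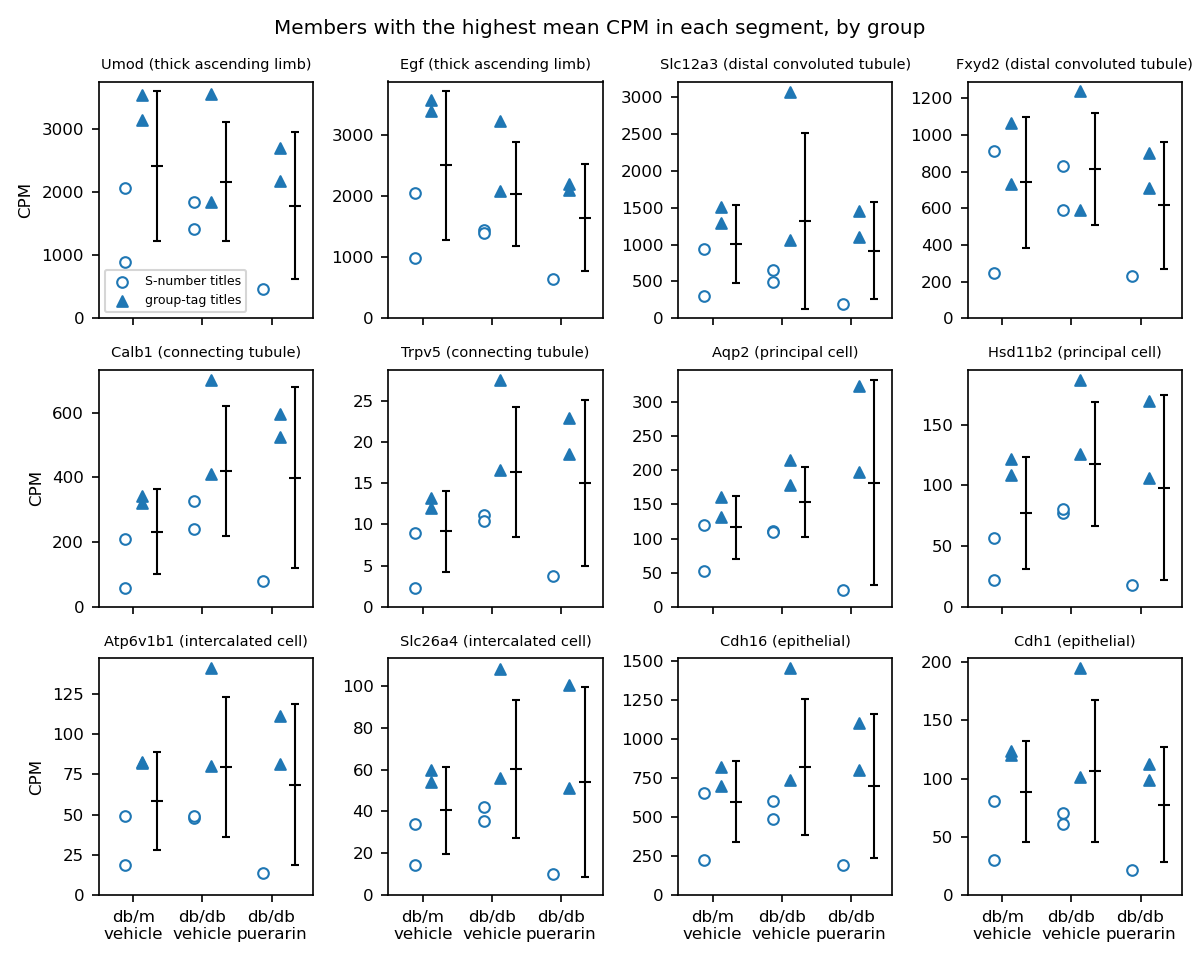
CPM of the pair of genes with the highest mean in each segment, by group; open circles are libraries with S-number titles, triangles those with group-tag titles, and bars give the mean ± SD of each group (n = 4, 4 and 3). In the panels the puerarin group has its S-number library, S144, far below its other libraries, and groups overlap in every panel.

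All 7 genes of the distal convoluted tubule were higher under group-tag titles, 4 past the test (Slc12a3, Trpm6, Wnk4 and Sostdc1). Slc12a3, the thiazide-sensitive sodium chloride cotransporter that defines the segment, was at 940.1, 304, 1509 and 1293 CPM in db/m, at 495, 651, 1063 and 3061 CPM in db/db vehicle, and at 191.5, 1106 and 1455 CPM in puerarin. The group-tag libraries were all above the S-number ones (log2 difference 1.79, SE 0.39, edgeR adjusted p = 0.0275), and db/db vehicle 3 was more than 2 times any other library. Between db/db and db/m the difference was 0.19 (interval -0.75 to 1.13).

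Fxyd2, the gamma subunit of the sodium pump, was at 915, 249, 733 and 1067 CPM in db/m, at 592, 833, 592 and 1241 CPM in db/db vehicle, and at 232, 903 and 712 CPM in puerarin. Here the title forms overlapped, with a log2 difference of 0.79 (SE 0.37, edgeR adjusted p = 0.218). Sostdc1, a secreted antagonist of bone morphogenetic protein and Wnt signalling, was at 35.4, 15.2, 70.8 and 69.5 CPM in db/m, at 44.5, 46.0, 80.3 and 109.6 CPM in db/db vehicle, and at 13.5, 88.9 and 95.8 CPM in puerarin. Within each title form the db/db vehicle libraries were above the db/m ones, by 0.96 among S-number and 0.42 among group-tag titles, but its overall difference of 0.66 (SE 0.32) had an edgeR adjusted p of 0.517.

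Wnk4, the kinase that regulates Slc12a3, was 1.64 higher on the log2 scale under group-tag titles (SE 0.29, edgeR adjusted p = 0.0147), and Trpm6, the magnesium channel of this segment, 1.35 higher (SE 0.31, adjusted p = 0.0333). Pvalb, a calcium-binding protein of the early part of the tubule, and Tfap2b were at 1.05 and 1.27 without passing the test. Over the 7 genes the difference between db/db and db/m ran from 0.17 (Fxyd2) to 0.66 (Sostdc1), and that between puerarin and vehicle from -0.91 (Slc12a3) to -0.50 (Trpm6).

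The connecting tubule genes had the smallest p-values of the 36 between db/db and db/m. Calb1, the calcium-binding protein calbindin-D28k, lies at chr4:15881264-15906709 (plus strand). It was at 211, 56.8, 341 and 321 CPM in db/m, at 328, 239.7, 412 and 701 CPM in db/db vehicle, and at 79.05, 596 and 524 CPM in puerarin. Within each title form both db/db vehicle libraries were above both db/m libraries, but across forms the groups overlapped. Its db/db vehicle mean of 420.0 ± 200 CPM (SD, n = 4) compared with a db/m mean of 233 ± 130.0 CPM (SD, n = 4), a log2 difference of 0.94 (SE 0.42, unadjusted p = 0.0492, edgeR adjusted p = 0.482). Over 22 other settings, with libraries left out among them, this difference ran from 0.591 to 1.475, and 0 settings passed the test.

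Trpv5, the epithelial calcium channel, was at 9.01, 2.33, 13.2 and 12.04 CPM in db/m, at 11.1, 10.4, 16.6 and 27.5 CPM in db/db vehicle, and at 3.70, 18.5 and 22.9 CPM in puerarin. It had the same order, with a difference of 0.88 between db/db and db/m (SE 0.39, unadjusted p = 0.048, edgeR adjusted p = 0.477), 1.23 within S-number and 0.76 within group-tag libraries. Over the same 22 settings its difference ran from 0.497 to 1.396, again with 0 past the test. Between puerarin and vehicle Calb1 was at -0.60 and Trpv5 at -0.55, against 0.06 and -0.05 within the group-tag libraries. Both genes were higher under group-tag titles past the test (1.502 and 1.399).

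In principal cells, 5 of 8 genes were higher past the test under group-tag titles: the 3 subunits of the epithelial sodium channel (Scnn1a 1.73, Scnn1b 1.77 and Scnn1g 1.72), Hsd11b2 and Avpr2. Aqp2, the water channel that vasopressin moves to the apical membrane, was at 119.7, 52.9, 131 and 161 CPM in db/m, at 110.7, 110.1, 178 and 215 CPM in db/db vehicle, and at 24.8, 323.5 and 198 CPM in puerarin. Its highest and lowest values were both in the puerarin group. Between puerarin and vehicle its log2 difference was -2.15 among S-number titles and 0.37 among group-tag titles, -0.26 in all (interval -1.41 to 0.88). Aqp3, the basolateral water channel, had the same split, with -2.11 and 0.26.

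Hsd11b2, the enzyme that inactivates glucocorticoids and so keeps the mineralocorticoid receptor for aldosterone, was at 56.7, 21.8, 108.5 and 122 CPM in db/m, at 76.9, 80.3, 126 and 187 CPM in db/db vehicle, and at 18.0, 106 and 169 CPM in puerarin. Within each title form db/db vehicle was above db/m, by 1.16 and 0.41, and the overall difference was 0.75 (SE 0.37, edgeR adjusted p = 0.537). The title forms did not overlap (1.63, SE 0.35, adjusted p = 0.0257).

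Fxyd4 was at 15.8, 15.1, 9.83 and 11.2 CPM in db/m, at 14.2, 12.1, 12.1 and 11.4 CPM in db/db vehicle, and at 11.2, 10.1 and 9.555 CPM in puerarin. It was the only gene of the 36 that was lower under group-tag titles (log2 difference -0.32, SE 0.10, edgeR adjusted p = 0.0873), and the puerarin libraries, S144 included, lay just below all db/db vehicle libraries (-0.23, SE 0.13, adjusted p = 0.967). Against db/m, puerarin was at -0.27 (SE 0.13, adjusted p = 0.511). An annotated microRNA gene, Gm25535, lies inside its interval.

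Avpr2, the vasopressin receptor of the collecting duct, singled out after its values were seen, had the widest gap between title forms. It was at 5.71, 3.14, 16.3 and 15.2 CPM in db/m, at 6.25, 5.73, 18.2 and 17.4 CPM in db/db vehicle, and at 2.85, 20.5 and 23.3 CPM in puerarin. All 6 group-tag libraries were above 15 CPM and all 5 S-number libraries below 7 (log2 difference 1.98, SE 0.23, edgeR adjusted p = 0.00245; adjusted p of at most 0.0146 over 20 other settings). Of its 2886 annotated exon bases, 2347 are shared with exons of Arhgap4 on the other strand, and whether counting used strand is not given, so reads of the pair cannot be told apart. Arhgap4 was at 9.41 to 24.0 CPM, with a difference of 0.73 between title forms (adjusted p = 0.0546). Smaller parts of the exons of Umod (539 of 2763 bases), Egf (607 and 500 of 11275), Ppp1r1b (460 of 2928), Wnk4 (306 of 4148) and Krt8 (101 of 1958) are shared with annotated genes on the other strand, with the same limit.

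Intercalated cell genes were all higher under group-tag titles, 3 of 6 past the test (Atp6v1b1, Atp6v0d2 and Slc26a4). Atp6v1b1, the B1 subunit of the proton pump, was at 49.4, 18.8, 82.6 and 82.1 CPM in db/m, at 47.8, 49.0, 80.4 and 140.8 CPM in db/db vehicle, and at 13.6, 81.2 and 111.1 CPM in puerarin. The group-tag libraries were all above 80 CPM and the S-number ones below 50 (1.58, SE 0.33, edgeR adjusted p = 0.0247). Slc26a4, the chloride-bicarbonate exchanger pendrin of base-secreting cells, was at 33.97, 14.3, 59.99 and 54.1 CPM in db/m, at 35.3, 41.9, 56.1 and 108.4 CPM in db/db vehicle, and at 9.90, 51.4 and 100.6 CPM in puerarin. Its group means of 40.6 ± 20.8, 60.4 ± 33.1 and 53.9 ± 45.4 CPM (SD, n = 4, 4 and 3) differed by less than their spread.

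Atp6v0d2 and Atp6v1g3 encode further pump subunits, and Foxi1 the transcription factor that specifies intercalated cells. Slc4a1, the chloride-bicarbonate exchanger of acid-secreting cells, is also made by red cell precursors as band 3. Slc4a1 was 1.16 higher under group-tag titles (SE 0.36, edgeR adjusted p = 0.0807). The 7 measured of 10 erythroid markers were all lower there (53.7% of all genes), 4 past the test (1.32% of all genes, lower). Their summed levels were 12.6 to 31.7 CPM under group-tag titles against 30.4 to 53.3 CPM under S-number titles. Of these markers, Hbb-b2 had the same CPM as Hbb-bt in every library, and Hbb-b1 nearly that of Hbb-bs. Hba-a1 and Hba-a2 were also close, so the counts of markers and the sums do not rest on 7 separate measures. Over the 6 intercalated genes the difference between db/db and db/m ran from 0.38 (Slc4a1) to 0.69 (Atp6v1g3).

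Of the 6 epithelial genes, Cdh1 and Krt18 were higher past the test under group-tag titles. Cdh16, a cadherin found along the renal tubule, was at 654, 222, 697 and 819.9 CPM in db/m, at 485, 601, 737.5 and 1452 CPM in db/db vehicle, and at 195, 800.5 and 1101 CPM in puerarin. Its title forms did not overlap, but the difference of 1.21 (SE 0.34) had an edgeR adjusted p of 0.0605. Cdh1, E-cadherin, was at 80.8, 30.4, 124 and 119.9 CPM in db/m, at 61.0, 70.2, 101.1 and 194.7 CPM in db/db vehicle, and at 21.35, 99.1 and 112.6 CPM in puerarin. Between puerarin and vehicle Cdh1 was at -0.85 (SE 0.37, unadjusted p = 0.0441, adjusted p = 0.967), -0.41 within the group-tag libraries.

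Among the 6 epithelial genes the 3 keratins had the smallest differences between title forms. Krt8 and Krt18, a pair that forms filaments in simple epithelia and is also made by parietal cells of the glomerular capsule, were 0.68 and 1.12 higher under group-tag titles, and Krt19, at 3.19 to 9.06 CPM, 0.39 higher (edgeR adjusted p = 0.334). Epcam was 1.25 higher (adjusted p = 0.0622). Between db/db and db/m the 6 genes ranged from 0.26 (Cdh1) to 0.57 (Krt8), and between puerarin and vehicle from -0.85 (Cdh1) to 0.03 (Krt19).

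Since the libraries differed in their overall level of these genes, each gene was also set against the other members in the same library, a description chosen after seeing the data. The common level here is the median log2 CPM of the other members, without first taking off each member's mean. On that scale Umod was at 5.87, 5.88, 5.71 and 6.04 (log2) in db/m, at 5.33, 5.46, 5.04 and 5.04 in db/db vehicle, and at 5.36, 5.23 and 4.68 in puerarin. Every db/db library of either arm was below every db/m library, whatever its title form. Egf was at 5.86, 6.02, 5.89 and 5.97 in db/m, at 5.35, 5.05, 5.21 and 4.89 in db/db vehicle, and at 5.79, 4.92 and 4.62 in puerarin, again with all db/db libraries below all db/m ones.

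Relative to the common level, 3 of 36 genes (Umod, Egf and Cdh1) were lower without overlap in db/db vehicle than in db/m, and none higher. Over all genes set against the same level, 0.852% were lower and 0.0437% higher. Those genes lack the shared movement that this scale takes off, so the shares are not like for like. Between puerarin and db/m, 7 were lower (Umod, Egf, Ppp1r1a, Tmem52b, Slc12a3, Tfap2b and Cdh1, 0.233% of all genes) and Calb1 was higher (0.0874%). Between puerarin and vehicle only Tfap2b was lower (0.051%) and none higher (0.146%). Between title forms Fxyd4 and Krt8 were lower (77.9%) and none higher (0.00728%). With the mean of the other members as common level, or with the highest transcript of each gene, Umod and Egf again had db/db vehicle below db/m, whereas Cdh1 did not, and between puerarin and db/m Umod and Tmem52b were the genes lower under all 3 choices. On the higher side, the mean as common level put Trpv5 above db/m in db/db vehicle, and Calb1, Trpv5 and Atp6v1g3 above db/m in puerarin. With the highest transcript Calb1 overlapped, and Atp6v1g3 alone was higher in puerarin than in db/m. Between puerarin and vehicle, the mean put Tmem52b lower in place of Tfap2b. There the highest transcript kept Tfap2b lower and put Atp6v1g3 higher. Between title forms, Scnn1b was higher with the mean and Scnn1a with the highest transcript, while Fxyd4 and Krt8 stayed lower. A relative level shows unequal change only, and whether Umod and Egf fell or other members rose cannot be told apart.

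Other genes of the distal nephron, 54 measured of 54 listed, were mostly higher under group-tag titles, apart from those of salt and water regulation. Of the 54, 47 were higher (46.3% of all genes), with a median log2 difference of 0.96. Past the test, 25 were higher (5.65% of all genes) and none lower (1.32% of all genes). By list, 10 of 17 loop and distal transport genes passed, 5 of 11 further intercalated genes, 6 of 14 transcription factors and 4 of 12 genes of salt and water regulation. The last list had 7 genes higher and 5 lower by title form (median 0.17), and 6 higher and 6 lower between db/db and db/m (median 0.01). Between db/db and db/m 46 of 54 were higher (median 0.38), where 53.5% of all genes were. Between puerarin and vehicle 49 were lower (median -0.41), where 55.3% of all genes were. Between puerarin and db/m 32 were lower (median -0.11), where 52.3% of all genes were. In each comparison 0 of the 54 were past the edgeR test (0.0437%, 0% and 0.182% of all genes).

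Of these genes Aqp4, the basolateral water channel of principal cells, had the smallest p between db/db and db/m. It was at 12.5, 9.76, 12.9 and 9.28 CPM in db/m, at 25.35, 19.75, 35.9 and 28.4 CPM in db/db vehicle, and at 11.01, 56.1 and 44.9 CPM in puerarin. The db/db vehicle libraries were all above the db/m ones (log2 difference 1.24, SE 0.34, edgeR adjusted p = 0.224), and puerarin S144 lay among the db/m libraries (puerarin against db/m 1.46, SE 0.39, adjusted p = 0.205). Stk39, the kinase that WNKs activate, was at 0.47 between db/db and db/m (adjusted p = 0.292) and -0.41 between puerarin and vehicle (adjusted p = 0.967). The mineralocorticoid receptor Nr3c2 was at -0.34 between puerarin and vehicle (adjusted p = 0.967), and Sgk1, a kinase induced by aldosterone and glucocorticoids, at 0.74 between puerarin and db/m (edgeR adjusted p = 0.137).

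Proximal tubule genes mostly had lower values under group-tag titles. Of 17, 16 were lower (53.7% of all genes), with 0 past the edgeR test (1.32% of all genes, lower). At an unadjusted p under 0.05, 2 were lower (11.2% of all genes), and the median of the 17 was -0.39. Their summed level was highest in db/m S184 (10550 CPM), at 7693 CPM in db/db vehicle 3, and lowest in db/db vehicle 1 (1501 CPM). In puerarin S144 and db/m S185, where the distal genes were lowest, it was 2730 and 3901 CPM. Kap alone gave 3031 CPM of the sum in db/m S184. Kap and Slc7a13 were lowest in puerarin 2 and 3, the libraries with high Xist, which have group-tag titles. Kap was at 56.7 and 22.7 CPM there and Slc7a13 at 5.47 and 1.19 CPM, against at least 114.7 and 9.38 CPM elsewhere. The part of Xist status in the differences of this list was not tested. Podocyte genes had a median difference of -0.12 between title forms (0 of 8 past the test), glomerular endothelial genes -0.30 (0 of 7) and mesangial genes -0.45 (1 of 7, lower). Parietal epithelial genes were at 0.60, with 5 of 7 higher (46.3% of all genes). Of these, 2 were past the test, Krt18 and Pax2 (5.65% of all genes, higher). Of that list Krt8 and Krt18 are among the 36, and Pax2 and Pax8 among the other distal nephron genes. Thin limb genes were at 0.64 (1 of 5 past the test, higher) and myeloid genes at 0.69 (0 of 8). In the group comparisons 14 of 17 proximal tubule genes had higher values in db/db than in db/m (median 0.27), where 53.5% of all genes did. With puerarin, 16 of 17 had lower values than with vehicle (median -0.39), where 55.3% of all genes did. Against db/m, 10 of 17 had higher values with puerarin (median 0.12), where 52.3% of all genes had lower ones. In each comparison 0 of the 17 were past the edgeR test. Podocyte genes had medians of -0.18 between db/db and db/m and 0.12 between puerarin and vehicle, and myeloid genes 1.35 and -1.13, with 0 of 8 past the test for either list. Of 7 parietal epithelial genes, 5 were higher and 2 lower than in db/m in either db/db arm. In each, 1 was called lower (edgeR adjusted p = 0.0232 on vehicle and 0.042 with puerarin). Dkk3 of that list was at 11.5 to 13.7 CPM in db/m, 4.44 to 5.84 in db/db vehicle and 4.99 to 6.77 in puerarin. EdgeR called 0.0437% and 0.182% of all genes. The myeloid genes summed to 806.4 CPM in db/db vehicle 1 and to 117.7 to 192.8 CPM in the other db/db vehicle libraries. Among S-number titles their sum was not higher in db/db vehicle (122.2 and 117.7 CPM) than in db/m (152.7 and 194.8 CPM). There Csf1r, Tyrobp and Lyz2 were lower in db/db vehicle and Cd68 and Ptprc overlapped. C1qa, C1qb and C1qc, at low levels, were higher (C1qa 4.95 and 3.84 CPM against 1.78 and 1.88 CPM). Over both title forms, 3 of the 8 genes had db/db vehicle above db/m without overlap (2.48% of all genes, higher). The part of these cell types in the differences of the 36 genes was not tested.

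**Figure D5:**
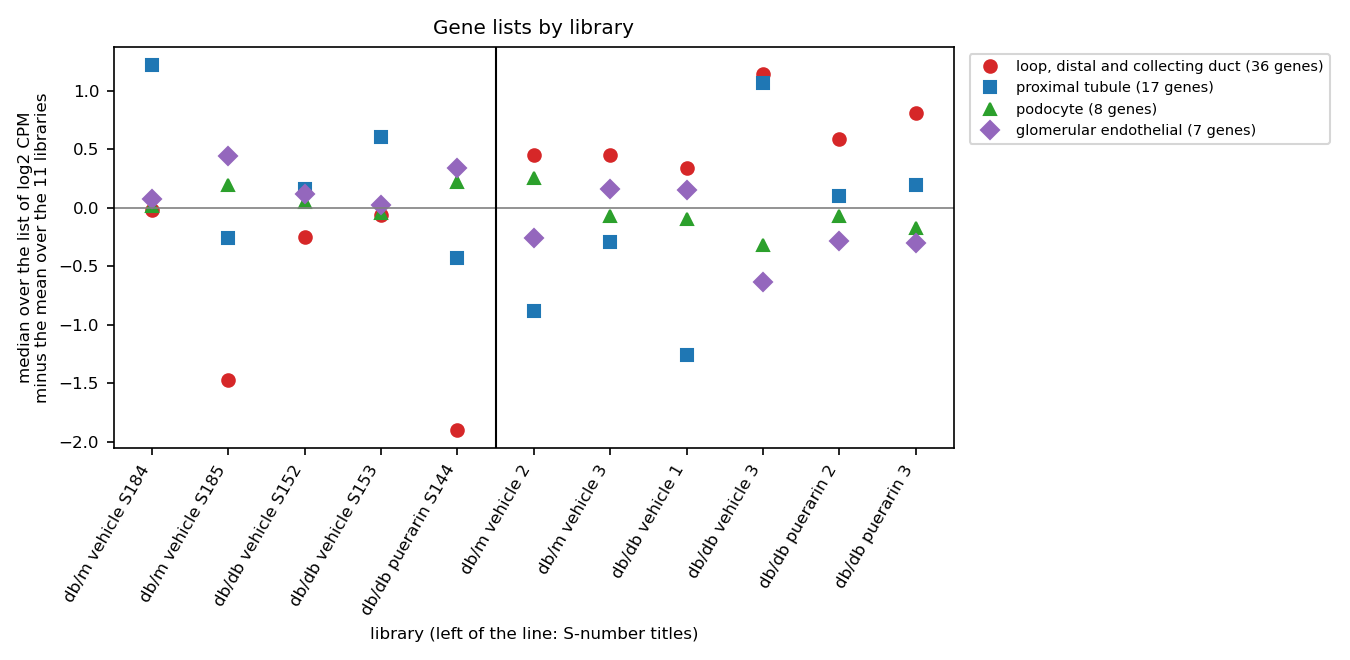
Median over each gene list of log2 CPM minus the mean over the 11 libraries; the vertical line divides S-number (left) from group-tag titles (right). The distal genes (36) are lowest in db/m vehicle S185 and db/db puerarin S144 and are above 0 in all 6 group-tag libraries, while proximal tubule genes (17) are highest in db/m vehicle S184 and lowest in db/db vehicle 1.

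Ratios within a library, for pairs chosen after the title forms had been compared, are given as a description with no test. The log2 ratio of Slc12a3 to Lrp2, the proximal endocytic receptor megalin, was 4.18 ± 0.67 under group-tag titles (SD, n = 6) and 2.03 ± 0.38 under S-number titles (SD, n = 5), with no overlap (3.41 to 5.08 against 1.47 to 2.4). The log2 ratio of Umod to Slc34a1, the proximal phosphate cotransporter, was 2.53 ± 0.70 (SD, n = 6) against 1.10 ± 0.36 (SD, n = 5), again with no overlap (1.74 to 3.32 against 0.60 to 1.53). Over the 8 ratios of Umod, Slc12a3, Aqp2 and Atp6v1b1 to each proximal gene, the difference between title forms, averaged over groups, ran from 1.51 to 2.24 on the log2 scale.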

How the data were processed

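RNA of isolated glomeruli was sequenced in 11 libraries (db/m vehicle n = 4, db/db vehicle n = 4, db/db puerarin n = 3). Raw counts per transcript were deposited by the authors, beside log2 values that equal log2 count plus a constant in 11 of 11 libraries and were not used. BWA, limma and mm10 are named in the submitters' processing notes; the counting step, its use of strand and what the title forms mean are not given in the sources used here. Of 15 count columns, 4 matched no sample and were not used. Here, 13 blank cells were taken as 0, 50 symbols turned into dates were restored by transcript identifier, and 22320 transcripts were summed to 13734 genes. A minimum of 1 count in 3 libraries removed 0 genes.

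Group and title form were fitted together with edgeR's quasi-likelihood test (4.0.16, R 4.3.3, TMM factors, 7 residual degrees of freedom), with Benjamini-Hochberg adjustment over all genes and a threshold of 0.05. DESeq2 1.42.0 was an alternative, as were other library factors, a minimum of 1 CPM, the highest transcript per gene, fits without the title form or group term, a replicate block and each library left out. The scripts were tested on simulated data. Library totals of 35369703 to 44244460 counts, with at least 103 counts per member, leave counting error small; intervals cover the spread between libraries.

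Genes were named as the pair with the highest mean CPM in each segment, the 3 members with the smallest p in each group comparison, and the 2 such genes of the other distal nephron lists. Members and lists were chosen with earlier results of these data known. Relative levels, ratios, fits without pairs of libraries and fits of the group-tag libraries alone were added after seeing the data. Labels do not say whether a library is 1 animal or a pool, so p-values measure only the spread between libraries, which may be technical. Same-numbered libraries deviated together in no consistent way (correlations 0.06, -0.11 and 0.05 in 3 pairs), so numbers were not taken as pairs.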

Additional observations from a re-analysis of the deposited data

Results flagged for a closer look

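In groups of 4 libraries, 4 of 72 member and group combinations had a library far from the other 3, where chance gives about 1 in 20. Trpm6, the magnesium channel of the distal convoluted tubule, was at 63.9 CPM in db/db vehicle 3 and at 14.7 to 20.0 CPM in the other db/db vehicle libraries. Tfap2b was at 63.5 CPM in db/db vehicle 3 and at 22.6 to 28.9 CPM in the others. Aqp3 was at 15.7 CPM in db/m vehicle S185 against 39.2 to 43.6 CPM in the other db/m libraries. Atp6v1g3 was at 6.82 CPM in db/m vehicle S185 against 33.8 to 39.2 CPM. All 4 lie in the library that was highest, or lowest of its group, for most of the 36 genes.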

How the results depend on the processing

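The direction by title form held for all 36 genes in every setting run, but the number past the test did not: it was 21 as fitted, 2 to 32 when 1 library was left out, 1 without the pair db/db vehicle 3 and db/m vehicle S185, and 2 when puerarin S144 and db/m S185 were left out. With the replicate block it was 5; the block made no call in the group comparisons, whose medians were then 0.61, -0.85 and -0.19. The same-numbered libraries share only a number. Between puerarin and db/m, DESeq2 called 1 gene and edgeR 0, and the median log2 difference of -0.12 turned to 0.31 with no title form term, 0.21 without S144 and S185 and 0.28 with group-tag libraries alone, ranged from -0.46 to 0.30 when 1 library was left out (0.30 without S144 and 0.14 without db/m S184), and was -1.31 without puerarin 2 and 3, which also gave -1.64 between puerarin and vehicle. The cause of these shifts was not tested. The sign held in every setting for 27 genes between db/db and db/m, 20 between puerarin and vehicle and 10 between puerarin and db/m. Depth and the number of libraries were not varied as such.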
